A study of Mus musculus with 3 samples.

Results

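The genes of MHC class II presentation described here are H2-Aa, H2-Ab1, H2-Eb1, H2-DMa, H2-DMb1, Cd74 and Ciita. They were chosen by name and are 7 of the 17168 genes counted. Each was followed across the authors' cell classes and within their macrophage class, library by library. The cells carry the leukocyte marker CD45 and came out of the sciatic nerve of NOD.AIRE GW/+ mice at 15 weeks of age, animals of the autoimmune-prone NOD background with 1 altered copy of Aire, a regulator of self-antigens in the thymus. There were 3 single-cell libraries of this genotype. Libraries 1 and 2 read the 3′ end of transcripts and library 3 the 5′ end. Wild-type nerves were not analysed here, so the values set cell classes side by side within 1 genotype.

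MHC class II molecules display peptides from endosomes to CD4 T cells. H2-Aa and H2-Ab1 encode the α and β chain of H2-A, the class II molecule of NOD mice, and H2-Eb1 encodes the β chain of H2-E, whose α chain NOD mice do not make. Cd74, the invariant chain, fills the groove of new molecules until proteases trim it, and the heterodimer of H2-DMa and H2-DMb1 then exchanges its last fragment for peptide. Ciita is the transactivator that switches these genes on by binding a complex of RFX, CREB and NF-Y proteins on their promoters. B cells, dendritic cells and activated macrophages express the set, plasma cells silence Ciita, and mouse T cells do not make class II.

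The complex that Ciita binds sits on a conserved X and Y box, so the promoters are shown here beside the genes they serve. RefSeq sequences on GRCm38.p6, from 250 bases before to 50 bases after a gene's start, were at hand for 4 of the 7 genes (H2-Aa, H2-Eb1, H2-DMa and H2-DMb1) and for 4 neighbours of the same pathway (H2-DMb2, H2-Oa, H2-Ob and H2-Eb2). The search was for the X2-like core TGATG or TGACG on either strand, followed after 10 to 30 bases by the Y core ATTGG, or the mirror image of that pair. This definition was set after seeing these sequences. Capitals mark the Y core nearest the start and, of the X2-like cores paired with it, the one farthest upstream.
H2-Aa, chr17:34287774-34288073, minus strand: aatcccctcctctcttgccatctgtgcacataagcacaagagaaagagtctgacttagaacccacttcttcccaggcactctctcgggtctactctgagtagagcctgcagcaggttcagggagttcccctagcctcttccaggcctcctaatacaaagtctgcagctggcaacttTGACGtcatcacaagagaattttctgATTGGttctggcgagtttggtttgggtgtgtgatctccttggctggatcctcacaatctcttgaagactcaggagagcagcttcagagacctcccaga
H2-Eb1, chr17:34305617-34305916, plus strand: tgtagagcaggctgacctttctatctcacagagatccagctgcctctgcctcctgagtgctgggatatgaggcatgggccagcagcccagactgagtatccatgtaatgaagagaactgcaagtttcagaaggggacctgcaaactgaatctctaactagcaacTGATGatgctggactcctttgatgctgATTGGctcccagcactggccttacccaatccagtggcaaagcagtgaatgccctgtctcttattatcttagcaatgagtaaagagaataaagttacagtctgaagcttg
H2-DMb1, chr17:34152941-34153240, plus strand: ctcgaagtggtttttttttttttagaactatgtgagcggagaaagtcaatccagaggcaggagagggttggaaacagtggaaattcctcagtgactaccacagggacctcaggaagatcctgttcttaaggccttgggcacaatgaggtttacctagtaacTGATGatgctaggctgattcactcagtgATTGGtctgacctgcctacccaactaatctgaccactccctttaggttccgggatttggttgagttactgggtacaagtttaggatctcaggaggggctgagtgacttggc
H2-DMb2, chr17:34144999-34145298, plus strand: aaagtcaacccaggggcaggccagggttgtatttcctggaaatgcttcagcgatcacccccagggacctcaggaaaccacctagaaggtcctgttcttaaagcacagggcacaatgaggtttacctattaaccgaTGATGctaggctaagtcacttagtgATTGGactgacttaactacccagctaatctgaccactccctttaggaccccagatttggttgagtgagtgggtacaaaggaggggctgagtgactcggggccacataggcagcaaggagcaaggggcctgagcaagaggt
The windows of H2-Aa, H2-Eb1 and H2-DMb1 held 3, 2 and 2 such pairs and that of H2-DMb2 held 1. The gap between the capitalised cores was 21, 22, 23 and 20 bases in H2-Aa, H2-Eb1, H2-DMb1 and H2-DMb2. H2-Ob and H2-Eb2 also held a pair, with gaps of 17 and 22 bases. The windows of H2-DMa (2 annotated starts) and of H2-Oa held none of these letters in that arrangement, which says nothing of the factors. Of 32851 promoter windows, 3.35% held such a pair, while 53.1% held TGATG or TGACG and 37.4% held ATTGG on either strand. H2-DMb1 and H2-DMb2 are neighbouring paralogs: their windows were identical in 210 of 342 aligned columns (61.4%).

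The 3 libraries held 22587246, 11398628 and 13791264 UMIs, the molecule tags that stand for single transcripts. They held 232, 28 and 34 cDCs, 1446, 89 and 415 B cells, 143, 2 and 30 pDCs and 367, 106 and 108 macrophages in libraries 1, 2 and 3, and 7248 cells of the T cell classes in all. The class names were checked against markers. Every marker listed for B cells (5), macrophages (6), pDCs (5), plasma cells (4) and NK cells (2) was highest in its own class. For cDCs this held for 2 of 7 markers, Xcr1 and Zbtb46. Flt3, Cd209a and Clec9a were slightly to clearly higher in pDCs, Ccr7 in B cells and Itgax in gdT/NK/NKT. T cell markers (Cd3e, Cd3d, Trac, Cd4, Cd8a) were all found in macrophages, and their summed level there was 60.1, 11.8 and 618 CPM in libraries 1, 2 and 3. Among macrophages 10.6%, 3.77% and 47.2% had a UMI of Cd3e, Cd3d or Trac, against 17.7%, 3.57% and 32.4% of cDCs. Libraries 1 and 2 shared 6 cell barcodes, and no other pair of libraries shared any.

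Levels are counts per 1000000 UMIs of a class in a library (CPM), unscaled, with no correction for gene length, so they compare a gene between classes and not genes with each other. The H2-A α chain gene H2-Aa (chr17:34282744-34287823, mm10) was highest in cDCs, with 8121, 14183 and 16640.5 CPM in libraries 1, 2 and 3. B cells had 4495, 7402 and 10859.6 CPM. Macrophages had 7645, 12513 and 3272 CPM. So in libraries 1 and 2 macrophages stood close to cDCs and above B cells, and in library 3 they stood below both. In pDCs H2-Aa had 2536 and 3186 CPM in libraries 1 and 3 (4022 in library 2, which holds 2 pDCs). Plasma cells, of which there were only 7, 12 and 35, had 858, 936 and 676 CPM. The level in the classes Treg, Cd8 and Cd4 was 8.27 to 86.8 CPM, and the Mixed and gdT/NK/NKT classes lay between these T cells and the presenting classes at 26.1 to 271 CPM.

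The β chain genes followed the same order of classes by mean level, cDC, macrophage, B cell, pDC. H2-Ab1 (chr17:34257689-34269419) had 8727, 10803 and 7166 CPM in cDCs, 7457, 10772 and 1674 CPM in macrophages and 3536, 4602 and 3160 CPM in B cells. H2-Eb1 (chr17:34305867-34316674) had 7150.0, 11150.2 and 9451 CPM in cDCs, 7071, 11120.2 and 1787 CPM in macrophages and 3779.6, 6024 and 5779 CPM in B cells. The macrophages of library 3 were the low value in both genes, and for H2-Ab1 the cDCs of every library lay above the B cells of every library. Cd74 (chromosome 18, 60803848 to 60812652) had 18139.7, 22235 and 37371 CPM in cDCs, 19055, 27512 and 9905 CPM in macrophages and 10469.7, 14222 and 27631 CPM in B cells. Plasma cells kept 6744, 5247 and 5520.1 CPM of Cd74, against 6016 and 9299.7 CPM in pDCs of libraries 1 and 3. Of the UMIs of the 7 genes, Cd74 took 69.8%, 67.2% and 78.9% in plasma cells, against 45.5%, 42.9% and 57.3% in B cells. Within each library Cd74 thus made a larger share of the set in plasma cells than in any other class, and library 3 had the largest Cd74 share in every class.

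The peptide exchange genes behaved differently from each other. H2-DMa (chr17:34119541-34139101) had 563, 658 and 609.7 CPM in cDCs, 651, 747 and 468 CPM in macrophages and 437, 547 and 485 CPM in B cells. H2-DMb1 (chr17:34153072-34160230) had 580.0, 864 and 376 CPM in cDCs and 599, 845 and 195 CPM in macrophages, but only 138, 221 and 112 CPM in B cells. B cells thus lay below cDCs in all 3 libraries with no overlap. Its neighbour H2-DMb2 (chr17:34143307-34151555) ran the other way, with 291, 272 and 1089 CPM in cDCs and 591, 645 and 1773 CPM in B cells. Macrophages had 43.1, 38.7 and 372 CPM of H2-DMb2. In all 3 classes H2-DMb2 was highest and H2-DMb1 lowest in the 5′ library. How reads were divided between these paralogs was not tested, so their sum was taken too: 871, 1135 and 1465 CPM in cDCs, 729, 867 and 1884 CPM in B cells and 642, 884 and 568 CPM in macrophages. In that sum cDCs and B cells overlapped, at 1157 ± 297 and 1160.1 ± 631 CPM (SD, n = 3).

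Ciita (chr16:10480059-10528418) had 281, 134 and 150.4 CPM in cDCs. B cells had 173, 167 and 171 CPM, the steadiest level of any gene of the set. Macrophages had 136, 79.5 and 51.3 CPM, and pDCs 44 and 26.3 CPM in libraries 1 and 3 (118 CPM, or 2 UMIs, in library 2). In every library macrophages lay below both cDCs and B cells. Plasma cells gave 0 UMIs of Ciita in all 3 libraries, which allows up to 30.3, 11.1 and 3.04 CPM. With every cell thinned to 1000 UMIs, Ciita was seen in 17.5 ± 7.04% of cDCs, 17.0 ± 4.35% of B cells, 8.75 ± 4.57% of macrophages and 2.04 ± 1.79% of pDCs (SD, n = 3). At that depth 0.109 ± 0.112% of T cells had a Ciita UMI. Unthinned, at median depths of 8700, 3113.5 and 7434 UMIs, the shares were 65.5% of cDCs, 43.7% of B cells and 38.3% of macrophages, against 0.577% of T cells at a median of 3024.5 UMIs. The share was thus far above the T cell background in the 3 main presenting classes at either depth.

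**Figure D1:**
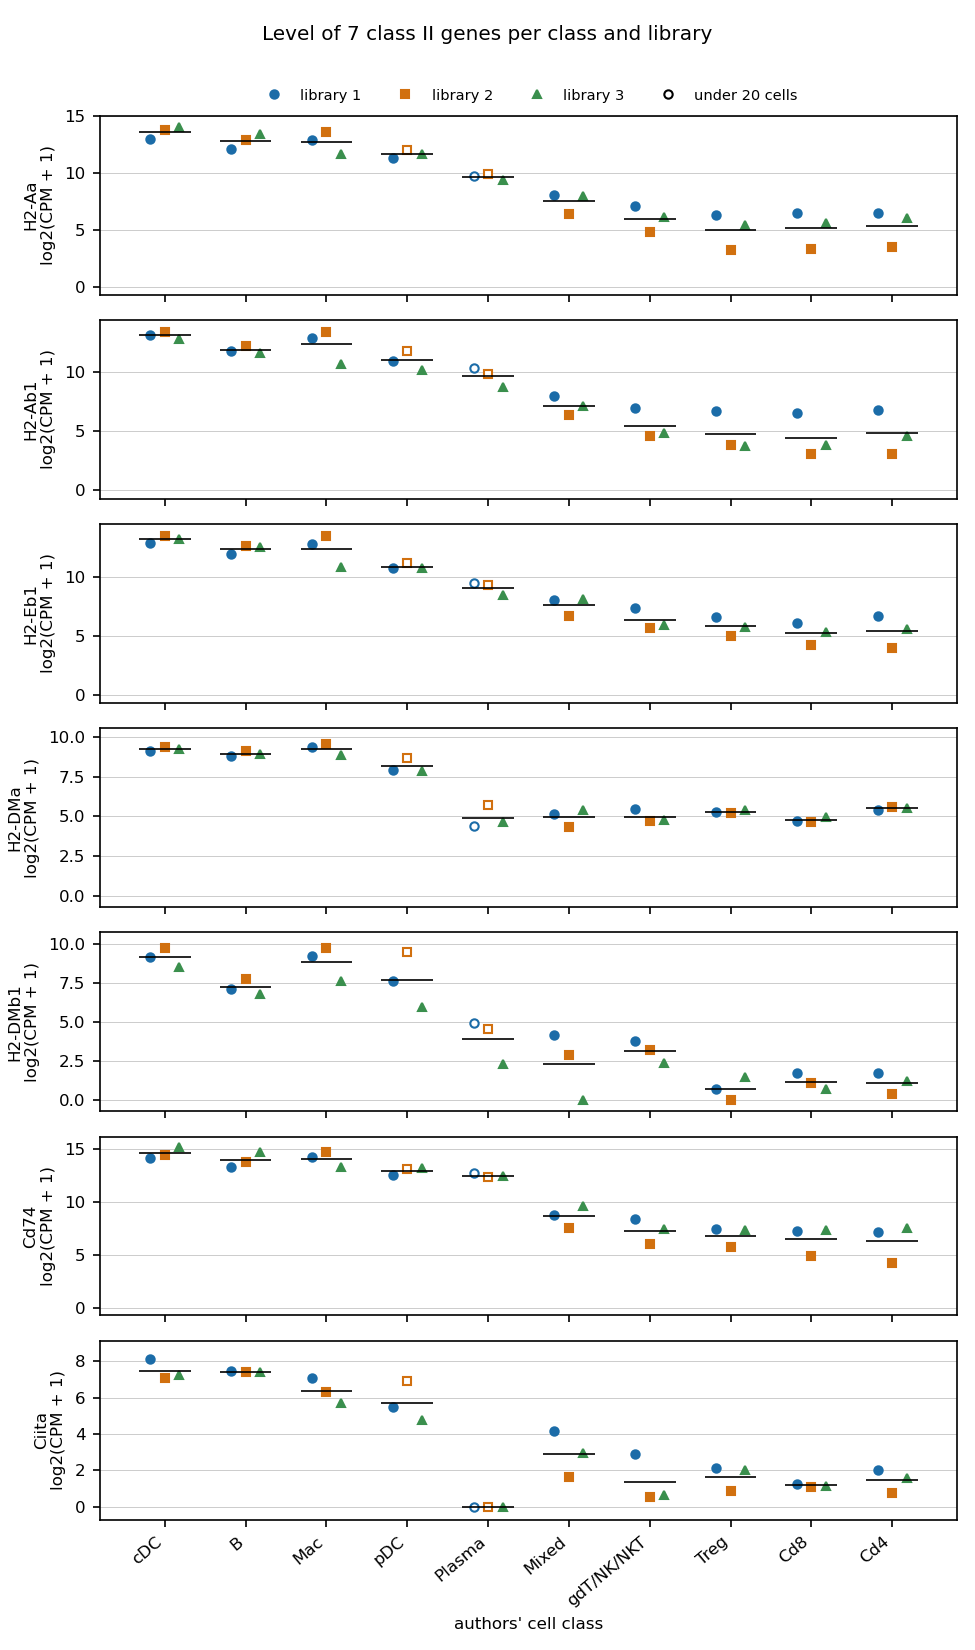
Level of each of the 7 genes, as log2(CPM + 1), in each of the authors' cell classes, with a point per library, a bar at the mean of the 3 log2 values and open points for sums of under 20 cells. The 4 presenting classes stand on the left and the T cell classes on the right. In the T cell classes H2-DMa varies less between libraries than H2-Aa, H2-Ab1, H2-Eb1 and Cd74, and Ciita is at 0 in plasma cells.

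Over 11574 genes, class sums scaled by TMM entered the quasi-likelihood test of edgeR with the library as a block. A gene was called at a Benjamini-Hochberg adjusted p under 0.05, and all 7 genes passed the filter on low counts. The authors drew the classes from these same counts, so a low p-value does not show that a class is a separate kind of cell. Nor is it stated if each library is 1 animal or a pool, and the p-values speak for the spread among these 3 libraries alone. DESeq2's size factors in place of TMM moved the median fold change of all genes by 0.10 for cDCs against B cells and by -0.12 for B cells against macrophages on the log2 scale, and by less in the others.

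Between cDCs and macrophages only the transactivator was called. Ciita was higher in cDCs by 0.96 ± 0.23 on the log2 scale (fold change ± SE, as below, adjusted p = 0.00315 in edgeR), and by 2.06, 1.69 and 2.93 times within libraries 1, 2 and 3. Thus 1 of 7 genes was called higher and 0 lower, where 8.28% of all genes were called higher and 10.6% lower. The classical chains did not pass: H2-Aa gave 0.47 ± 0.75 (adjusted p = 0.761), H2-Ab1 0.41 ± 0.74 (0.794), H2-Eb1 0.34 ± 0.67 (0.812) and Cd74 0.026 ± 0.69 (1). Within libraries cDCs had 1.06 and 1.13 times the H2-Aa of macrophages in libraries 1 and 2, and 5.09 times in library 3. The wide errors are not those of this pair alone, since the spread is estimated over all class sums of the fit. Against B cells the SE of H2-Aa was 0.75 too, though cDCs had 1.81, 1.92 and 1.53 times the level of B cells. H2-DMa (-0.16 ± 0.17, adjusted p = 0.620) and H2-DMb1 (0.11 ± 0.29, adjusted p = 0.880) were not called either. The Ciita call ended without library 1 (0.88, adjusted p = 0.0810) and without library 3 (0.76, adjusted p = 0.0511), and in DESeq2 (0.94, adjusted p = 0.162). Over 11 alternatives its adjusted p ran from 0.00113 to 0.651 and the fold change from 0.76 to 1.14.

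Between cDCs and B cells only H2-DMb1 passed, higher in cDCs by 1.94 ± 0.31 (adjusted p = 8.03e-05, edgeR) and by 4.20, 3.90 and 3.36 times within the libraries. That is 1 of 7 higher and 0 lower, beside 19% and 22.2% of all genes. H2-Ab1 was 2.47, 2.35 and 2.27 times as high in cDCs within libraries but did not pass (1.30 ± 0.74, adjusted p = 0.181). H2-Aa (0.88 ± 0.75, adjusted p = 0.377), H2-Eb1 (0.90 ± 0.66, 0.304), Cd74 (0.67 ± 0.68, 0.471), H2-DMa (0.35 ± 0.17, 0.108) and Ciita (0.14 ± 0.23, 0.650) were not called. The result for the chains turned on the error: with only cDC and B cell sums in the fit, 6 of 7 were called, Ciita being the exception. Beside the H2-DMb1 call stands that cDCs and B cells overlap in the sum of H2-DMb1 and H2-DMb2.

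B cells against macrophages split the set. Ciita was higher in B cells (0.82 ± 0.22, adjusted p = 0.00287, edgeR), while H2-DMb1 (-1.83 ± 0.30, adjusted p = 7.59e-05) and H2-DMa (-0.51 ± 0.17, adjusted p = 0.0140) were lower. In the sum of H2-DMb1 and H2-DMb2 the direction of the means turned, with 1160.1 ± 631 CPM in B cells and 698 ± 165 CPM in macrophages (SD, n = 3). By library, B cells had 729, 867 and 1884 CPM and macrophages 642, 884 and 568 CPM. Library 2 thus did not turn, and the gap was widest in library 3, the 5′ library. So 1 of 7 was called higher and 2 lower, beside 26.8% and 22.1% of all genes. The chains were not called: H2-Ab1 gave -0.89 ± 0.75, Cd74 -0.64 ± 0.69, H2-Eb1 -0.55 ± 0.67 and H2-Aa -0.41 ± 0.76. In libraries 1 and 2 B cells had 0.588 and 0.592 times the H2-Aa of macrophages, in library 3 3.32 times. Without library 3 Ciita was no longer called (0.38, adjusted p = 0.270, of 0.00113 to 0.578 over 11 alternatives). H2-DMa was lost without library 1 (-0.59, adjusted p = 0.0606) and without library 2 (-0.42, adjusted p = 0.0849, of 0.000346 to 0.977).

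The pDCs had lower mean levels than cDCs and macrophages in all 7 genes. Their sums in the fit come from libraries 1 and 3 alone, while macrophages enter with all 3 libraries. Against macrophages 4 of 7 genes were called lower and 0 higher, beside 15.8% and 13.7% of all genes. These were H2-DMa (-1.71 ± 0.22, adjusted p = 2.59e-07, edgeR), Ciita (-1.83 ± 0.35, adjusted p = 0.000133), H2-DMb1 (-2.03 ± 0.40, adjusted p = 0.000760) and H2-Eb1 (-2.52 ± 0.85, adjusted p = 0.0359). H2-Ab1 (-2.58 ± 0.97, adjusted p = 0.0574), Cd74 (-2.35 ± 0.87, 0.0555) and H2-Aa (-2.28 ± 0.96, 0.0903) fell short of the threshold. Within library 1 pDCs had 0.332 times the H2-Aa of macrophages, and within library 3, where macrophages were low, 0.974 times. For H2-Eb1 the ratios were 0.238 and 0.921. The fitted falls of these genes were steeper than either ratio, and the fit also draws on the macrophages of library 2. Against T cells pDCs were higher in 7 of 7 genes, beside 16.4% of all genes higher and 17.5% lower, from 2.78 ± 0.19 for H2-DMa to 6.91 ± 0.45 for H2-DMb1. Without library 1 the pDC sum of 30 cells stands alone, its spread being taken from the other classes, and 2 of 7 genes were called lower than in macrophages.

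**Figure D2:**
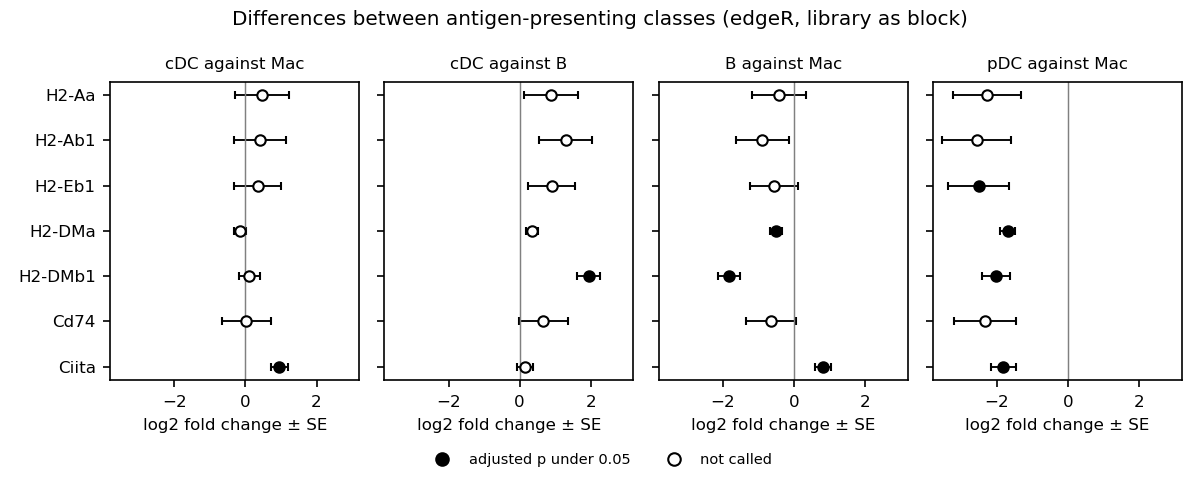
Log2 fold change with its standard error of each gene in 4 comparisons between presenting classes (edgeR, library as block), filled where the adjusted p is under 0.05. Ciita is higher in cDCs and in B cells than in macrophages, H2-DMb1 is lower in B cells than in either, and pDC values all lie left of 0 against macrophages.

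The other genes of the pathway divided by role. The list held 29 names, of which 26 were tested, while H2-Ea, H2-Ea-ps and Marchf1, the newer name of March1, were not analysed here. H2-Oa and H2-Ob, the chains of H2-DO, which holds H2-DM back, were higher in cDCs than in macrophages by 4.42 ± 0.26 (adjusted p = 1.18e-14, edgeR) and 3.43 ± 0.58 (adjusted p = 0.000295). H2-Oa had 173, 147 and 166 CPM in cDCs and 9.88, 2.15 and 5.70 CPM in macrophages. The 4 loading genes tested were H2-Oa, H2-Ob, H2-DMb2 and H2-Eb2. Of these, 4 were higher in cDCs than in macrophages and 4 in B cells than in macrophages, beside 8.28% and 26.8% of all genes. H2-Ob was higher in B cells than in macrophages by 5.52 ± 0.49, and lower in cDCs than in B cells by 2.09 on the log2 scale (adjusted p = 0.000344). For H2-Eb2, at 23.7, 58.9 and 51.5 CPM in cDCs, macrophages gave 0.395, 0 and 0 CPM. B cells thus combined the highest H2-Ob with the lowest H2-DMb1 of the 3 main presenting classes, with the limit above on H2-DMb1 and H2-DMb2.

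The proteases that trim the invariant chain ran the other way. Of 7 lysosomal genes, 5 were lower and 1 higher in cDCs than in macrophages, beside 10.6% and 8.28% of all genes. In B cells 6 were lower than in macrophages, beside 22.1% of all genes. Cathepsin S, the main invariant chain protease of B cells and dendritic cells, had 1225, 995 and 1370 CPM of Ctss in cDCs, 399, 428 and 459 CPM in B cells and 3659, 4205 and 2653 CPM in macrophages. Ctss was lower in cDCs than in macrophages (-1.70 ± 0.16) and in B cells than in macrophages (-3.21 ± 0.17). Cathepsin L (Ctsl), which takes that role in thymic epithelium, set pDCs apart, with 1497 and 2243 CPM in libraries 1 and 3, against 208, 395 and 143 CPM in macrophages (2.74 ± 0.35, adjusted p = 9.36e-06, edgeR). Legumain (Lgmn) and cathepsin D (Ctsd) were lower in cDCs than in macrophages by 3.11 and 4.24 on the log2 scale. The thiol reductase Ifi30 was the 1 gene higher in cDCs, but its counts were 0 in these 4 classes in libraries 1 and 2, so that call rests on library 3.

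Of 10 transcription genes, 1 was higher and 1 lower in cDCs than in macrophages, beside 8.28% and 10.6% of all genes. In B cells 4 were higher and 1 lower than in macrophages, beside 26.8% and 22.1%. Rfx5, a subunit of the complex that Ciita binds, was lower in cDCs than in B cells by 0.95 on the log2 scale (adjusted p = 0.0252, edgeR) and had 3.22 to 22.5 CPM over the 3 classes. That call held in 4 of 10 alternatives, with adjusted p from 0.0244 to 0.749, and was lost without library 1 (-0.34) and without library 3 (-0.85). Irf8, a factor of dendritic cell and pDC development, had 2756 and 2677 CPM in pDCs and 308 to 505 CPM in macrophages (2.33 ± 0.25). March1, the ligase that takes class II off the surface, was lower in pDCs than in macrophages. Its levels were 16.9 and 4.39 CPM, few counts in sums of 143 and 30 pDCs, against 65.6, 29.0 and 68.5 CPM. Cd83, which opposes March1, was lower too (-3.72 ± 0.76, adjusted p = 0.00133). Of the 26 tested genes, 11 were lower and 5 higher in pDCs than in macrophages, beside 15.8% and 13.7% of all genes. The median fold change of the 26 was -0.77, beside -0.01 for all genes.

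Interferon gamma induces Ciita, and 19 of 20 genes of a list of its targets were tested beside it. In B cells 14 were lower and 0 higher than in macrophages, beside 22.1% and 26.8% of all genes. The median fold change of the list was -1.06, beside 0.22 for all genes. Among the lower were Cxcl10 (-7.50 ± 0.54), Gbp2 (-3.16 ± 0.42), Gbp3 (-2.46 ± 0.32) and Gbp5 (-2.07 ± 0.42). The part of interferon gamma in the Ciita levels of these classes was not tested. In pDCs 16 were lower and 0 higher than in macrophages, beside 15.8% and 13.7% of all genes (median -1.65, beside -0.01). In cDCs 6 were lower and 3 higher than in macrophages, beside 10.6% and 8.28% of all genes. The lower were led by Gbp6 (-3.45 ± 0.59) and Cxcl10 (-1.97 ± 0.39). The higher were the class I processing genes Tap1 (0.75 ± 0.16), Psmb8 (0.57 ± 0.14) and Psmb9 (0.54 ± 0.15).

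Macrophages stood above T cells in 7 of 7 genes, where 25.1% of all genes were called higher and 30.1% lower. The fold change was smallest for H2-DMa (4.49 ± 0.13, adjusted p = 2.64e-23, edgeR) and ran to 8.94 ± 0.32 for H2-DMb1, with Ciita at 5.90 ± 0.25. The T cell classes serve as the background, since they are taken to lack class II. There the genes fell into 2 patterns. H2-Aa had 84.9, 9.28 and 52.3 CPM in T cells of libraries 1, 2 and 3, H2-Ab1 had 99.5, 8.54 and 16.5 CPM, and Cd74 had 154, 27.8 and 170.0 CPM, so that library 2 was always lowest. H2-DMa had 34.0, 37.0 and 37.8 CPM, with a spread of 1.97 CPM (SD) around 36.3. Its share of the 7 genes' UMIs was 7.36%, 36.0% and 11.7% in T cells, against 1.53%, 1.18% and 2.70% in macrophages and 1.90%, 1.65% and 1.01% in B cells. In every library the H2-DMa share was higher in T cells than in these presenting classes.

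Thinned to 1000 UMIs, 3.83%, 3.53% and 3.76% of T cells had an H2-DMa UMI, while 8.24%, 0.835% and 4.70% had one of H2-Aa. In presenting cells the H2-DMa share was 34.9% to 43.2% of B cells and 33.3% to 37.5% of cDCs. Among the T cell classes H2-DMa was highest in Cd4, at 40.9, 48 and 44.7 CPM, next in Treg, at 37.3, 36.4 and 41.4 CPM, and lowest in Cd8, at 25.2, 24.4 and 29.6 CPM. Cd8 lay below the others in every library. The split ran on between the authors' clusters, 2 of which make up Cd8. Cluster 3 had 20.4, 10.8 and 17.0 CPM of H2-DMa and cluster 4 had 27.9, 36.2 and 42.6 CPM, with no overlap. Of the 3 Cd4 clusters, cluster 6 had 57.6, 59.1 and 71.3 CPM and cluster 0 had 39.4, 44.1 and 36.2 CPM, also with no overlap. Cluster 5, whose counts are few (41 H2-DMa UMIs in 973 cells), had the highest H2-Aa of the T cell clusters in each library, at 199, 27.0 and 134 CPM. These clusters were drawn from the same counts, so their differences are a description. T cells with 5 or more class II UMIs of 1000 were 0.348% of the class and held 11.1% of its class II UMIs.

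**Figure D3:**
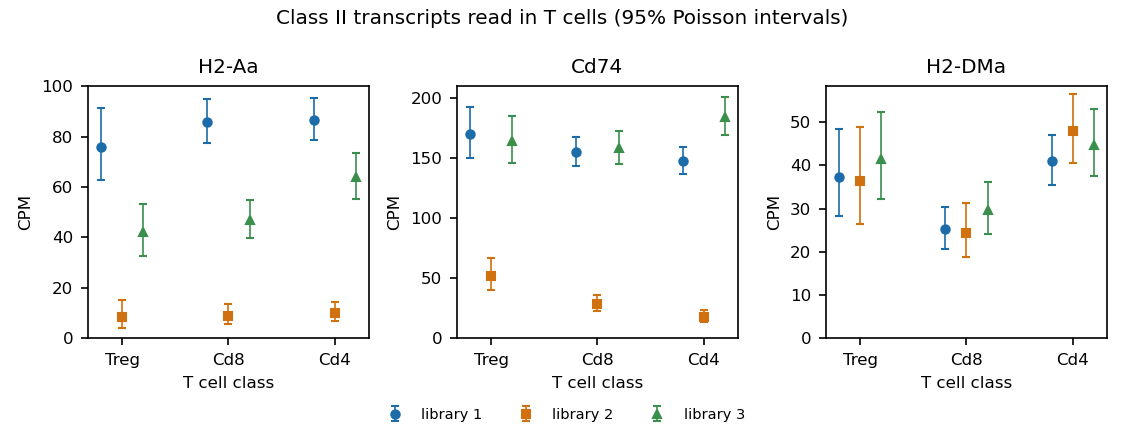
Level of H2-Aa, Cd74 and H2-DMa in CPM in the 3 T cell classes, with a point per library and its 95% Poisson interval, which covers counting error only. H2-Aa and Cd74 are lowest in library 2 in each class, while H2-DMa lies between 24.4 and 48 CPM in all libraries.

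Of the other lymphocytes, the Mixed class had 271, 84.3 and 250.5 CPM of H2-Aa. Against T cells only Cd74 was called (1.99 ± 0.58, adjusted p = 0.0372, edgeR), which is 1 of 7 higher and 0 lower beside 5.95% and 4.93% of all genes. That call ended without library 1 (2.36, adjusted p = 0.166) and without library 3 (1.83, adjusted p = 0.335, of 0.000789 to 0.335). Of all Mixed cells, 3.81% had 5 or more class II UMIs of 1000. They held 66.4%, 20.4% and 57.0% of the class II UMIs of the class in libraries 1, 2 and 3, while the level of Cd74 was 2.81, 6.68 and 4.80 times that of T cells. These cells were only 4, 2 and 5 in libraries 1, 2 and 3. Library 2 had the lowest Cd74 in both classes, 186 CPM in Mixed and 27.8 CPM in T cells. The part of such cells in the ratio was not tested. In gdT/NK/NKT only H2-DMb1 was called against T cells (2.73 ± 0.58, adjusted p = 0.00197), 1 of 7 higher and 0 lower beside 11% and 11.4% of all genes. It had 13.2, 8.40 and 4.15 CPM there and 2.08, 0.589 and 1.14 CPM in T cells, low values in both. H2-DMa was not called in either (Mixed -0.28 ± 0.28, gdT/NK/NKT -0.10 ± 0.18).

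By mean level the order of classes was cDC, macrophage, B cell, pDC for H2-Aa, H2-Ab1, H2-Eb1 and Cd74. No neighbouring pair in it was called in edgeR, with the spread taken from all class sums of the fit. Between its ends, cDC and pDC, H2-Aa (2.74 ± 0.95, adjusted p = 0.0490, edgeR), H2-Ab1 (2.99 ± 0.96, 0.0334) and H2-Eb1 (2.86 ± 0.85, 0.0217) were called. Cd74 was not (2.37 ± 0.85, 0.0571). Plasma cells, whose mean lay between pDCs and Mixed in these 4 genes, were not in the fit. The step from pDC down to Mixed was called for these 4 genes (3.76 ± 0.94 for H2-Aa, adjusted p = 0.00721). For H2-DMa the order was macrophage, cDC, B cell, pDC, with the step from B cell to pDC called (1.20 ± 0.22, adjusted p = 6.15e-05). The next step, from pDC to Cd4, was called too (2.48 ± 0.22, adjusted p = 8.79e-11). For H2-DMb1 it was cDC, macrophage, pDC, B cell, with the step from macrophage to pDC called. That from B cell to gdT/NK/NKT was called too (4.39 ± 0.41, adjusted p = 1.58e-07). The place of pDCs in the H2-DMb1 order rests on the 2 cells of library 2. Their mean of 323 CPM is 130 CPM without that library, below the 157 CPM of B cells. For Ciita the order was cDC, B cell, macrophage, pDC, and each step from B cells down to Mixed was called. No neighbouring pair was called below Mixed for any of the 7 genes, nor below Cd4 for H2-DMa. Cd4 and Cd8 are not neighbours in the H2-DMa order, and H2-DMa was called higher in Cd4 (0.64 ± 0.19, adjusted p = 0.0245, edgeR).

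Genes outside the set with the most similar pattern were sought over the 26 class sums of the fit, among 11354 genes, by the correlation of log2(CPM + 1) with the mean z score of the 7 genes. The 10 highest were Gm6377, Ly86, Spi1, Nuak2, March1, Fgd2, Plbd1, BC028528, Pkib and Lmo2, with r between 0.942 and 0.964. These sums share libraries and depth, so the values are a description.

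Within macrophages the libraries differed widely. With each of 350, 99 and 92 macrophages thinned to 2000 UMIs, the 7 genes made a median of 93, 147 and 15.5 UMIs per cell in libraries 1, 2 and 3. Cells with under 10 were 18.6%, 10.1% and 44.6%, and cells with 100 or more were 45.4%, 73.7% and 7.61%. Library 1 spread over the whole range, library 2 lay mostly high and library 3 mostly low. In cDCs and B cells H2-Aa and Cd74 were at their highest in library 3, whereas H2-Ab1 and H2-DMb1 were at their lowest there, as in macrophages. The macrophage marker C1qa moved with the macrophage values, at 4475, 6211 and 322 CPM in libraries 1, 2 and 3. Adgre1 (175, 208 and 108 CPM), Mertk (22.9, 48.3 and 8.56 CPM) and Cd68 (342, 409 and 305 CPM) were likewise highest in library 2 and lowest in library 3. Lyz2 (6947, 12878 and 7445 CPM) was lowest in library 1, and Csf1r had 667, 526 and 685 CPM. Their part in the difference was not tested. Macrophages with a UMI of Cd3e, Cd3d or Trac were also left out. The median of library 3 was then 11 UMIs in 47 cells, against 15.5 with them. Its H2-Aa was then 3535 CPM, against 3272 CPM with them. The part of T cell transcripts in the difference was not tested. Macrophages with a Ly6c2 UMI were 50.4%, 31.1% and 72.2% of the class, and their part in the difference was not tested. There is 1 library of the 5′ kind, so kind and library cannot be told apart.

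**Figure D4:**
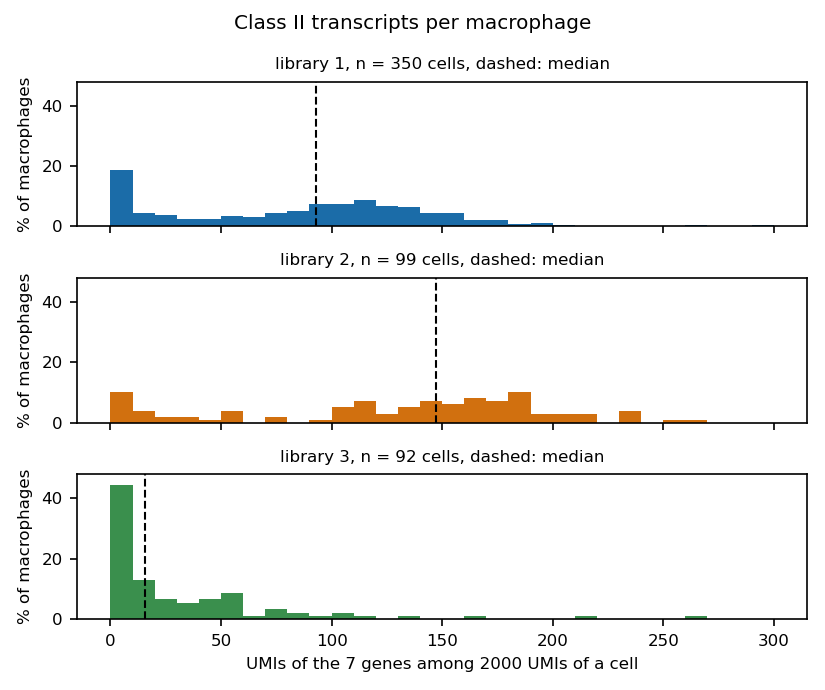
Share of macrophages, in percent, by the number of UMIs of the 7 genes among 2000 UMIs of a cell, with a panel for each library and a dashed line at its median of 93, 147 or 15.5 UMIs. Library 3 has 44.6% of its cells below 10 UMIs, and library 2 has 10.1%.

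Cell by cell, H2-Aa, H2-Ab1, H2-Eb1 and Cd74 went together. Spearman's rho between any pair of them was 0.805 to 0.850 as a mean over libraries, at 2000 UMIs per cell. H2-DMa and H2-DMb1 correlated with these 4 at 0.299 to 0.386, and Ciita at 0.124 to 0.196. Counts of H2-DMa, H2-DMb1 and above all Ciita are sparse at this depth, so nothing is read from those weak values. Among 1536 genes seen in at least 10% of macrophages of every library, those that followed the summed set most closely were Apoe (mean r 0.625), which carries lipid, C1qa (0.577), a complement subunit of tissue macrophages, Itm2b (0.469), Tmem176a (0.413) and Ctss (0.404). Tmem176b, AW112010, Aif1 and the class I gene H2-K1 came next, at 0.358 to 0.371. At the other end stood S100a6 (-0.587), Anxa2 (-0.535), Plac8 (-0.505), Samhd1 (-0.480), Ifitm3 (-0.462), S100a4 (-0.457), F13a1 (-0.452), Crip1 (-0.444), Ahnak (-0.432) and Chil3 (-0.423). Several of these (S100a6, S100a4, Plac8, F13a1, Chil3) are known from monocytes. Several values were weaker in library 3. Apoe had 0.717, 0.818 and 0.341 in libraries 1, 2 and 3, C1qa 0.690, 0.695 and 0.346, Itm2b 0.585, 0.608 and 0.214, Plac8 -0.624, -0.728 and -0.162, and S100a4 -0.598, -0.760 and -0.012.

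Macrophages with a UMI of Ly6c2, a gene of monocytes and of macrophages newly made from them, were compared with those without within each library, over 5507 genes. In Ly6c2-positive macrophages H2-Aa had 5694, 10153 and 2466 CPM, against 9883, 13823 and 7836 CPM in Ly6c2-negative macrophages. H2-Eb1 had 4703, 8226 and 1168 CPM in positive cells and 9788, 12728 and 5297 CPM in negative cells, and Cd74 12779, 20060.0 and 8052 CPM against 26259, 31649.5 and 20409 CPM. Positive cells were the lower in every library. In edgeR 4 of 7 genes were called lower, H2-Aa (-1.05 ± 0.24, adjusted p = 0.0118), H2-Ab1 (-1.07 ± 0.24, 0.00906), H2-Eb1 (-1.36 ± 0.25, 0.00194) and Cd74 (-1.09 ± 0.25, 0.00970). None was higher, and 2.05% of all genes were called lower and 1.53% higher. H2-DMa (-0.25 ± 0.19, adjusted p = 0.657), H2-DMb1 (-0.34 ± 0.19, 0.479) and Ciita (-0.36 ± 0.24, 0.592) were not called. Ciita had 144, 48.1 and 48.7 CPM in positive cells and 127, 96.9 and 66.6 CPM in negative cells, so library 1 went against the others.

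The 4 calls held with cells thinned to 2000 UMIs but ended, at 0 of 7, without library 1, without library 2 and without macrophages with a T cell marker UMI. For H2-Eb1 these gave -1.44 (adjusted p = 0.275), -1.62 (adjusted p = 0.0819) and -1.38 (adjusted p = 0.0689), of 5.41e-07 to 1 over 10 alternatives, with the sign the same in each. In library 3 the negative cells were only 30, with a median of 2112 UMIs against 8142 in positive cells. Of the pathway list, 19 genes passed the filter and 2 were lower in positive cells, Ctsd (-0.93 ± 0.19, adjusted p = 0.00435, edgeR) and the costimulatory ligand Cd86 (-0.87 ± 0.21, adjusted p = 0.0180). Of 19 interferon gamma genes, 1 was higher, Gbp2 (0.80 ± 0.19, adjusted p = 0.0162). Over 10 alternatives Ctsd was called in 5, Cd86 in 4 and Gbp2 in 5, and each was lost without library 1 and without library 2.

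**Figure D5:**
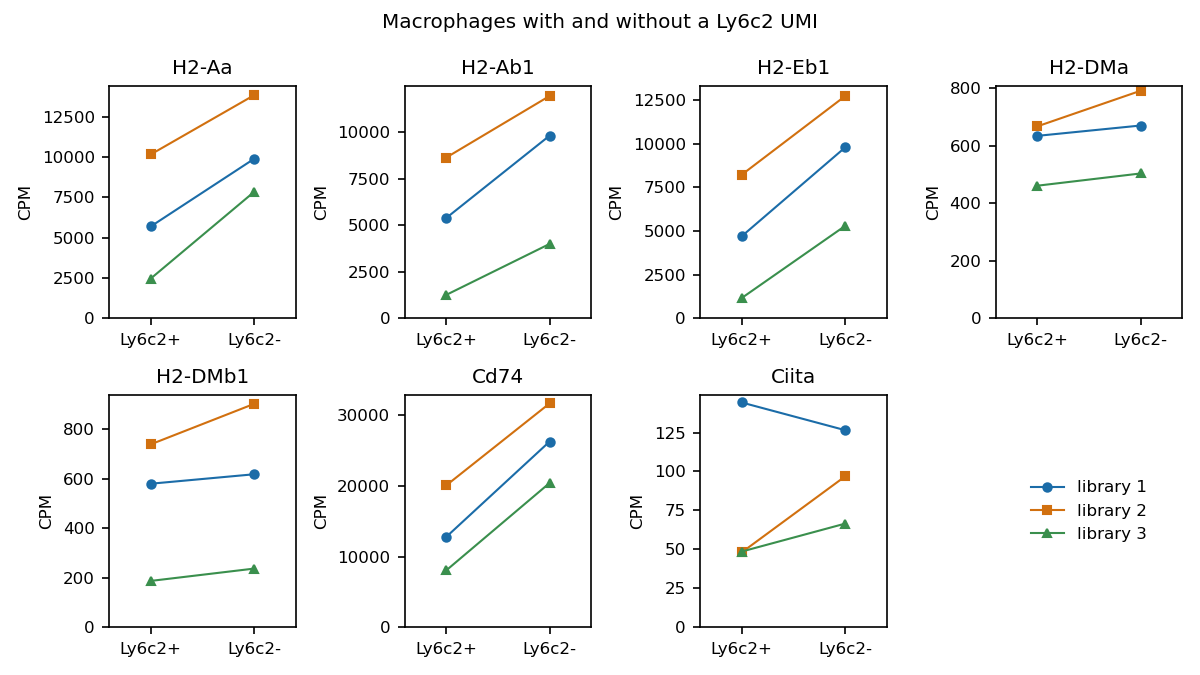
Level in CPM of each gene in macrophages with (left) and without (right) a Ly6c2 UMI, with a line per library. H2-Aa, H2-Ab1, H2-Eb1 and Cd74 are lower in Ly6c2-positive cells in all 3 libraries, while the Ciita line of library 1 runs against the others.

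Cxcl9, a chemokine induced by interferon gamma, was seen in 61.6%, 41.5% and 36.1% of macrophages of libraries 1, 2 and 3. Cxcl9-positive macrophages had 8311, 13300.5 and 3974 CPM of H2-Aa, against 6379, 11886 and 2750.5 CPM in Cxcl9-negative ones. H2-Ab1 had 8339, 11806 and 2263 CPM against 5781, 9950.1 and 1237 CPM. The positive cells were the higher in each library, by less than the libraries differed from each other. Over 4710 genes edgeR called 4 of 7 higher, H2-Ab1 (0.58 ± 0.10, adjusted p = 0.00141), H2-Eb1 (0.49 ± 0.09, 0.00200), Cd74 (0.43 ± 0.09, 0.00410) and H2-Aa (0.40 ± 0.09, 0.0130). None was lower, and 0.934% of all genes were called higher and 0.701% lower. H2-DMa (0.21 ± 0.11, adjusted p = 0.549), H2-DMb1 (0.24 ± 0.12, 0.508) and Ciita (0.47 ± 0.20, 0.361) were not called. Ciita had 155, 87.2 and 50.2 CPM in positive cells and 99.7, 73.3 and 52.2 CPM in negative cells.

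These calls fell to 0 of 7 without library 3 and without macrophages with a T cell marker UMI, and to 1 of 7 without library 1. For H2-Ab1 the values were 0.42 (adjusted p = 0.0978) and 0.78 (adjusted p = 0.137), of 7.15e-06 to 1 over 10 alternatives. Positive cells were deeper, at medians of 7417, 10242 and 8265 UMIs against 6481, 9250 and 6302. Thinned to 2000 UMIs, 3 of 7 genes were called, H2-Ab1 at 0.34. In the pathway list the factor Irf8 (0.68 ± 0.13, adjusted p = 0.00224, edgeR) and the costimulatory receptor Cd40 (0.79 ± 0.18, adjusted p = 0.0115) were higher, 2 of 17 tested. Of 18 interferon gamma genes, 2 were higher, Cxcl10 (1.65 ± 0.18, adjusted p = 0.00224) and Cd274 (0.82 ± 0.19, adjusted p = 0.0131). Over 10 alternatives Cxcl10 was called in 9, Irf8 in 6, Cd40 in 5 and Cd274 in 3, and Cd274 was lost without each of the 3 libraries in turn.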

How the data were processed

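Single-cell RNA sequencing gave, in the table deposited by the authors, a raw UMI count for 17168 genes and 11640 cells. The mm10 build, Seurat 4.0 and Cell Ranger 5.0.1 are named, per the submitters' processing notes, without their roles. The authors' cell table names the library and class of each cell and its deposited totals, which equal the recomputed ones, and gives a deposited mitochondrial percent, not used further. All cells were kept, including 84 that Scrublet (scanpy 1.11.5) called doublets.

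UMIs were summed per class and library, from at least 20 cells, and tested in R 4.3.3 with edgeR 4.0.16 (glmQLFit, TMM, filterByExpr, Benjamini-Hochberg). Plasma cells and the pDCs of library 2 stayed out of the fit. Macrophages with and without a UMI of Ly6c2 or Cxcl9 were summed likewise, from at least 10 cells, without that gene. T cells are the mean of Cd4, Cd8 and Treg. Sums of the same number come from the same library, which was the block: their deviations from the class means correlated at 0.317 to 0.671, and between macrophage sums at 0.559 to 0.815. Standard errors were obtained by dividing a fold change by the square root of its F statistic. The code was tested on simulated data.

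The genes, lists and named genes were chosen with earlier results of these data known. Named are the 7 genes, up to 4 called genes per direction of both lists with the largest fold change, and the 10 most and least similar genes (1 of them and 1 marker list are not reported here); others named (Ctss, Ctsd, Ctsl, Rfx5, March1, Cd83, Ifi30, H2-DMb2) show roles and were chosen after their values were seen. The Mixed and gdT/NK/NKT comparisons and the exclusion of macrophages with T cell transcripts were added after seeing the data. In mean ± SD over libraries, pDCs include the 2 cells of library 2. Thinning to 1000 UMIs left out 648 of 7248 T cells, and 2, 46 and 10 cDCs, B cells and macrophages. Intervals are exact Poisson ones at 95%; they and the limit a count of 0 allows (3 counts) cover counting error only. Alternatives used DESeq2 1.42.0 and limma 3.58.1 on log2(CPM + 1) of 20 cells per sum. Positions are those of GENCODE on mm10.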

Additional observations from a re-analysis of the deposited data

How the results depend on the processing

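Of the fold changes of named genes, 1555 kept their direction and side of the threshold under the alternatives, 243 lost their call, 25 gained one and 26 reversed. The cause was not tested. The counts below are of all genes and then of the 7 genes called.

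Without the replicate block, genes called were 798 for cDCs against macrophages (with it 2190), 2267 for cDCs against B cells (4774), 3006 for B cells against macrophages (5658), 1904 and 2500 for pDCs against macrophages and T cells (3415 and 3922), 4024 for macrophages against T cells (6390), 636 for Mixed (1260) and 846 for gdT/NK/NKT (2586), and 0 for both macrophage splits (197 by Ly6c2, 77 by Cxcl9). Of the 7 genes, the fit without the block called 0 for cDCs against macrophages, 0 for cDCs against B cells, 1 for B cells against macrophages, 1 for pDCs against macrophages and 0 in both splits. Limma on 20 cells per sum called, in that order of class comparisons, 261, 701, 901, 552, 832, 1198, 176 and 176 genes. It called 0 of the 7 in cDCs against macrophages, cDCs against B cells, B cells and pDCs against macrophages and gdT/NK/NKT against T cells.

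Leaving out 1 library at a time gave 909 to 2148 genes for cDCs against macrophages, 2142 to 4140 for cDCs against B cells, 3552 to 4856 for B cells against macrophages, 1241 to 3054 and 1643 to 3749 for pDCs against macrophages and T cells, 4341 to 5684 for macrophages against T cells, 26 to 379 and 28 to 50 for the splits by Ly6c2 and Cxcl9, 715 to 864 for Mixed and 1681 to 1905 for gdT/NK/NKT. Of the 7 genes it left 0 to 1 for cDCs against macrophages, 2 to 3 for pDCs against macrophages, 0 to 4 in each split and 0 to 1 for Mixed.

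With only the compared classes in the fit, 1153, 3128 and 3680 genes were called for cDCs against macrophages, cDCs against B cells and B cells against macrophages, and 6, 4 and 3 of the 7 for cDCs against B cells, Mixed and gdT/NK/NKT. DESeq2 called 102 genes in the split by Ly6c2 and 25 by Cxcl9. Of the 7 it called 0 for cDCs against macrophages, 7 for pDCs against macrophages, 2 in the split by Cxcl9 and 6 for Mixed. Its size factors in edgeR gave 2 for cDCs against B cells and 2 for Mixed. With no filter on low counts, 1 of the 7 was called in the split by Ly6c2 and 0 for Mixed. Thinning to 2000 UMIs left 38 and 44 genes in the splits by Ly6c2 and Cxcl9, and leaving out macrophages with T cell transcripts left 120 and 31, with 0 of the 7 in both.

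Some fold changes (log2) reversed. For cDCs against macrophages, leaving out 1 library at a time gave -0.10 to 1.23 for H2-Aa, -0.20 to 1.22 for H2-Ab1, -0.25 to 1.09 for H2-Eb1, -0.23 to 0.32 for H2-DMb1 and -0.50 to 0.83 for Cd74, lowest without library 3 and highest without library 2, and -0.42 to 0.018 for H2-DMa. Cd74 was -0.05 without library 1, -0.075 with no filter and -0.013 without macrophages with T cell transcripts, H2-DMb1 -0.026 without the block and H2-DMa 0.098 in limma. Likewise over the fits without 1 library, Ciita in cDCs against B cells ran from -0.12 without library 1 to 0.39. For B cells against macrophages such fits gave H2-Aa from -1.10 to 0.39, H2-Eb1 from -1.22 to 0.18 and Cd74 from -1.27 to 0.13, highest without library 2, and limma gave 0.053, 0.040 and 0.022. H2-DMa was 0.017 in the split by Ly6c2 after thinning, and without 1 library at a time ran from -0.44 to 0.046 in Mixed and from -0.39 to 0.082 in gdT/NK/NKT (0.030 without library 2). Also in gdT/NK/NKT, Ciita ran in those fits from -1.29 without library 1 to 0.97, and limma gave -0.82 for H2-Aa and 0.41 for Cd83. Iigp1 in Mixed was -1.66 in limma.

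The share of cells with a UMI rose with depth: at 2000 UMIs and unthinned, Ciita was seen in 31.2% and 65.5% of cDCs, 25.9% and 43.7% of B cells, 14.6% and 38.3% of macrophages and 0.441% and 0.577% of T cells, and H2-DMa in 6.92% and 11.4% of T cells. Unthinned, H2-Aa was seen in 11.6% of T cells. Without called doublets Ciita averaged 1.11 CPM in Cd8 (1.27 with them).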
